A study of Mus musculus with 16 samples.

Results

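Heat shock chaperone transcripts were followed in CD8 T cells sorted from mouse mammary tumours. The 10 members are Hspa1a, Hspa1b, Hspa8, Dnajb1, Dnaja1, Hsph1, Bag3, Hsp90aa1, Hspd1 and Hspe1, taken by gene symbol from a count table of 24028 genes, and each was found as 1 row. All 10 were among the 17414 genes that passed the filter on low counts and were tested. BALB/c mice bore tumours of TS/A, a mouse mammary adenocarcinoma line injected into the mammary pad, and received either vehicle or entinostat, which inhibits histone deacetylases of class I. Dosing was daily from day 7 after injection, at 20 mg/kg for entinostat. The tumours were collected after 3 or 10 days of dosing, on day 10 or day 17, and live CD45.2+ CD8+ CD4- cells were sorted. This gave 4 groups of 4 libraries: vehicle at day 10, entinostat at day 10, vehicle at day 17 and entinostat at day 17. The question set for the series is the effect of treatment and its length on division and effector function of the T cells. Nothing in the sources used here gives the ages of the mice or says that each library is a separate mouse, so the p-values reflect the spread among these libraries, part of which may be technical.

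Heat shock proteins are chaperones that bind unfolded or partly folded proteins. HSP70 proteins bind exposed hydrophobic stretches, J-domain proteins bring them substrates and trigger their ATPase, and nucleotide exchange factors release the bound protein, which HSP90 or a chaperonin may then take over. Under heat or other proteotoxic stress the transcription factor HSF1 binds heat shock elements, inverted repeats of the unit GAA and its complement TTC, and raises transcription of the inducible members. Activated T cells also make chaperones as they enlarge and divide, and tissue dissociation and cell sorting are known to induce heat shock genes in many cell types.

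The promoters show which members carry the repeated unit near their start sites. RefSeq promoter windows of GRCm38.p6, 250 bases before to 50 after a start site, were found for 8 of the 10 members, Hsp90aa1 and Hspa8 having no entry. A complete element of 3 units, GAANNTTCNNGAA or its complement TTCNNGAANNTTC, was present for 3 of these 8 (Hsph1, Hspe1 and Hspd1), against 0.662% of all 27025 genes with a window. A pair of units, GAANNTTC or TTCNNGAA, was present for 7 of the 8, all but Dnajb1, against 16.97% of all genes. Both searches covered both strands, and every 3-unit element also contains 2-unit matches. The sequences below show the upstream matches, with the repeated units in capitals. One site lies between start sites of the 2 mitochondrial genes, and another is the same in both inducible HSP70 genes.
Hspe1, chr1:55088053-55088082, plus strand: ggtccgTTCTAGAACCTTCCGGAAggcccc
Hspd1, chr1:55088053-55088082, minus strand: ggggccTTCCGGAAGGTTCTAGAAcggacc
Hspa1a, chr17:34972223-34972290, minus strand: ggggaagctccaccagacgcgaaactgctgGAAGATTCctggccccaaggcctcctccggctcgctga
Hspa1b, chr17:34959305-34959372, minus strand: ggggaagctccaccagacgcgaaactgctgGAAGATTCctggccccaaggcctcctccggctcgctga
Hsph1, chr5:149636351-149636380, minus strand: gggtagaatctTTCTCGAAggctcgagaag
Dnaja1, chr4:40722333-40722362, plus strand: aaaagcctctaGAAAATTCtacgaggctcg
Hspe1 and Hspd1 lie on opposite strands, and the printed site is one stretch of DNA read on either strand. The Hspe1 start lies 216 bases from the Hspd1 start whose window holds the site. Hspd1 has another start, with 0 matches in its window, and seen from that start the site lies within the gene. The site holds 2 overlapping 3-unit matches, the first beginning 89 bases before the Hspe1 start. The Hspa1a and Hspa1b promoters differed at 3 of 250 bases and carry their 2-unit match 104 bases before the start. In Hsph1 the 3-unit match lies 37 bases after the start, and in Bag3 the 2-unit match lies 43 bases after it. A match is a description of letters, and no factor binding was measured here.

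In 7 of the 10 members (Hspa1a, Hspa1b, Dnajb1, Dnaja1, Hsph1, Hsp90aa1 and Hspe1) the 4 vehicle libraries of day 10 lay above all 12 others, as in 2.99% of all tested genes. The summed level of the members was 2729 ± 147 CPM (SD, n = 4) with vehicle and 1894 ± 322 with entinostat at day 10, and 1436 ± 146 and 1426 ± 272 at day 17. The last mean includes 1818 CPM in entinostat day 17 replicate 3, the smallest library, against 1188 to 1350 CPM in the others of its group. Between days the inducible HSP70 pair fell more than 5-fold and Dnajb1 by 0.99 on the log2 scale in both treatments, while Hspd1 rose with entinostat. Called below means an adjusted p under 0.05 in edgeR's quasi-likelihood test with Benjamini-Hochberg adjustment over the 17414 genes, with SE the standard error of a log2 fold change. Levels are CPM, counts scaled to a common library total after TMM normalisation, and SD is the standard deviation over the 4 libraries of a group. Values by library are in the order of replicates 1 to 4.

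At day 10, 5 members were lower with entinostat and 0 higher, where 6.93% of all tested genes were called lower and 7.63% higher. The 5 were Hspa1a, Dnajb1, Hsp90aa1, Hsph1 and Hspd1. At an unadjusted p under 0.05, 8 were lower and 0 higher, and the share of all genes under that rule is not given here. DESeq2 called 4 lower and limma-voom 8, both with 0 higher. Of all genes DESeq2 called 7.48% lower and 13.2% higher, and limma-voom 18.2% lower and 20.5% higher. In 8 members, all but Hspa8 and Bag3, every entinostat library lay below every vehicle library, an arrangement seen in 12.4% of all genes. The median log2 fold change of the members was -0.37, against 0.06 over all genes and -0.17 over the 9772 genes of at least 16 CPM on average, of which 11.9% were called lower. The day 10 calls were not stable: the count was 1 (Hspd1) without vehicle day 10 replicate 1, 2 or 3 or without entinostat day 10 replicate 2 or 3. Calls over all genes fell as well, to 2.96%, 3.55%, 2.97%, 3.47% and 2.98% lower in the same order. The count of members was 2 or 3 without vehicle day 10 replicate 4, entinostat day 17 replicate 1, 2 or 4 or vehicle day 17 replicate 2 or 3. There 4.23% to 5.61% of all genes were called lower. With a replicate block within each day, which uses the shared replicate numbers as pairs, 2 members stayed called, Hsph1 and Hspd1. Of all genes 4.26% were called lower there. In that block Hspa1a was -1.29 (adjusted p = 0.0512), Dnajb1 -0.37 (adjusted p = 0.0567) and Hsp90aa1 -0.35 (adjusted p = 0.0624). With scaling by library size alone 0 were called, where 2.89% of all genes were called lower and 9.17% higher. The medians were then -0.21 for the members and -0.01 for genes of at least 16 CPM.

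At day 17, 1 member, Dnajb1, was lower with entinostat and 0 were higher, where 13.0% of all genes were called lower and 5.29% higher. Dnajb1 was also the 1 member whose entinostat libraries all lay below the vehicle libraries, against 13.6% of all genes. Hspd1 was the 1 whose entinostat libraries all lay above, an arrangement whose share over all genes was not worked out. The median of the members was -0.14, against -0.01 over all genes and -0.22 over genes of at least 16 CPM, of which 21.9% were called lower. Scaling by library size alone put 5 of 10 members below 0 in place of 8, and with it or with RLE scaling the 1 call was Hspd1, higher. Of all genes 8.36% were lower and 7.79% higher with library size alone, and 9.79% and 6.72% with RLE scaling. At an unadjusted p under 0.05, 3 members were lower and 2 higher, DESeq2 called 2 higher (Hspa8 and Hspd1) and limma-voom called 0 in either direction. The count was 0 without vehicle day 10 replicate 1, entinostat day 17 replicate 1 or 4, or vehicle day 17 replicate 1 or 4. It was 2 without entinostat day 10 replicate 1 or 3 or vehicle day 17 replicate 2, and leaving out entinostat day 10 replicate 2 made it 3. The 1 call was Hspd1, higher, when entinostat day 17 replicate 2 was left out, and Hspa1a, lower, when replicate 3 of either day 17 group was.

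With vehicle, 6 members were lower at day 17 than at day 10 and 0 higher, where 3.63% of all genes were called lower and 1.89% higher. The 6 were Hspa1a, Hspa1b, Dnajb1, Dnaja1, Hsp90aa1 and Hsph1. An unadjusted p under 0.05, DESeq2 and limma-voom all gave 0 higher as well, and DESeq2 and limma-voom each called 6 lower. Of all genes DESeq2 called 6.48% lower and 5.91% higher, and limma-voom 8.54% lower and 7.56% higher. In 8 members, all but Hspd1 and Bag3, the day 17 libraries lay below every day 10 library, against 8.77% of all genes. The median of the members was -0.49, against 0.13 over all genes and -0.10 over genes of at least 16 CPM, of which 6.40% were called lower. The count ran from 4 to 7 when each of the 16 libraries was left out, where 0.912% to 8.20% of all genes were called lower. Dnaja1 and Hsph1 lost their calls without vehicle day 10 replicate 1, 2 or 3 or vehicle day 17 replicate 2 or 3. Hspa8 gained one without entinostat day 17 replicate 3. With scaling by library size alone 3 were called, Hspa1a, Hspa1b and Dnajb1, where 1.14% of all genes were called lower.

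With entinostat, 3 members were lower at day 17 than at day 10, Hspa1a, Hspa1b and Dnajb1, and 1 was higher, Hspd1. Of all genes 10.5% were called lower and 3.26% higher, and of genes of at least 16 CPM 18.2% were called lower and 3.39% higher. The same 3 were the members whose day 17 libraries all lay below the day 10 libraries, against 12.5% of all genes. The median of the members was -0.28, against 0.03 over all genes and -0.16 over genes of at least 16 CPM. These 4 calls and those of Hspa1a, Hspa1b and Dnajb1 with vehicle held under every alternative that gave them a value, 26 or 27 for each gene and comparison. The other 10 of the 17 calls over the 5 comparisons were lost in at least 1 alternative. The difference of the entinostat effect, day 17 minus day 10, was called for 1 member, Hspd1, as higher, where 0.218% of all genes were called higher and 0.253% lower. The comparisons share their groups, so they are not independent of each other.

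Scaling by library size alone in place of TMM moved the median of genes of at least 16 CPM from -0.17 to -0.01 for entinostat at day 10, from -0.22 to -0.06 at day 17, from -0.10 to 0.03 between days with vehicle and from -0.16 to -0.03 with entinostat. The share of called genes that were lower went from 47.6% to 24%, from 71.1% to 51.8%, from 65.8% to 40.6% and from 76.3% to 56.7% in the same order. With RLE scaling it was 59.3% at day 17, and for the difference it was 41.5% against 53.7%. Hspa1a, Hspa1b and Dnajb1 between days, and Hspd1 between days with entinostat, kept their calls and direction under all 3 scalings.

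**Figure D1:**
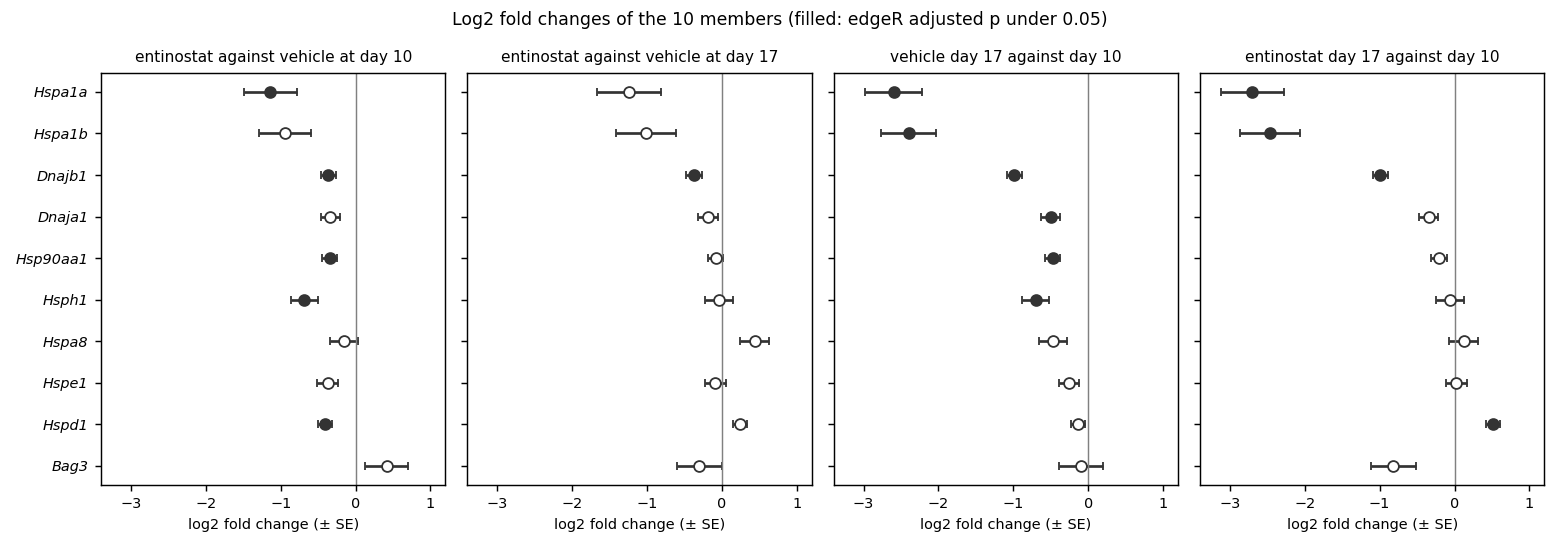
Log2 fold change (x axis) with its SE for each of the 10 members (y axis) in 4 comparisons, from edgeR's quasi-likelihood fit on 16 libraries; filled points have an adjusted p under 0.05. Hspa1a and Hspa1b lie below -2 in both comparisons of days, and Hspd1 is the 1 member called higher, with entinostat between days.

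Hspa1a (chr17:34969359-34972156, GRCm38.p6, as for all positions here) and Hspa1b (chr17:34956429-34959238) encode the stress-inducible HSP70, which many unstressed cells make at low levels. They lie 9951 bases apart by the gene bounds of GENCODE M21, which differ from the RefSeq positions given here. Hspa1a had 416, 416, 384 and 349 CPM in the 4 vehicle libraries of day 10 and 283, 84.4, 112 and 231 CPM in the 4 entinostat libraries of day 10. The day 17 values were 46.5, 75.7, 29.3 and 110.1 CPM for vehicle and 20.6, 24.5, 59.7 and 24.1 CPM with entinostat. The vehicle libraries of day 10 were thus close together and above all others, the entinostat libraries of day 10 were spread over a wide range, and the day 17 groups overlapped. The standard deviation was 8.15% of the mean with vehicle at day 10 and 53.4% with entinostat at day 10. Between days Hspa1a was 6.06-fold lower at day 17 with vehicle (log2 -2.60 ± 0.38 SE, adjusted p = 0.00250) and 6.49-fold lower with entinostat (-2.70 ± 0.43, adjusted p = 0.000368). With entinostat it was 2.20-fold lower at day 10 (-1.14 ± 0.36, adjusted p = 0.0409) and 2.36-fold lower at day 17 (-1.24 ± 0.43, adjusted p = 0.0520), which passed the threshold at day 10 and missed it at day 17. The difference between these effects was -0.10, with a 95% interval from -1.30 to 1.10. The day 10 call was lost in 17 of 27 alternatives and the day 17 value gained a call in 7, within ranges of -1.45 to -0.86 and -1.66 to -0.87. Without entinostat day 17 replicate 3, the smallest library, the day 17 value was -1.46 (adjusted p = 0.0419).

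Hspa1b had a higher level than Hspa1a in every library. It had 545, 577, 519.8 and 474 CPM with vehicle at day 10 and 449.9, 127, 195 and 328 CPM with entinostat. The day 17 values were 63.5, 118, 56.6 and 168 CPM with vehicle and 41.8, 44.2, 105 and 37.0 CPM with entinostat. Its vehicle libraries of day 10 again lay above all others, and vehicle day 17 replicate 4 and entinostat day 17 replicate 3 were again the highest of their groups. Hspa1b was 5.27-fold lower at day 17 with vehicle (-2.40 ± 0.37, adjusted p = 0.00264) and 5.51-fold lower with entinostat (-2.46 ± 0.40, adjusted p = 0.000501). The entinostat effects, -0.95 ± 0.35 at day 10 and -1.01 ± 0.40 at day 17, were not called (adjusted p = 0.0721 and 0.0857).

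The pair cannot be fully separated by short reads. The coding sequences of the longest transcripts differ at 10 of 1929 aligned positions (99.5% identity), and 58.8% of the 50-base windows of the Hspa1a transcript occur in that of Hspa1b, while the 3' untranslated parts share 54.6%. The sources used here do not say how reads matching both were counted. Counts of the pair were therefore also summed. The sum was 919.9 ± 74.8 CPM (SD, n = 4) with vehicle at day 10, 452 ± 237 with entinostat at day 10, 167 ± 87.4 with vehicle at day 17 and 89.1 ± 50.2 with entinostat at day 17. The summed pair was 5.55-fold lower at day 17 with vehicle (adjusted p = 0.00279) and 5.66-fold lower with entinostat (adjusted p = 0.000503). Its entinostat effects of -1.03 ± 0.36 at day 10 and -1.05 ± 0.40 at day 17 were not called (adjusted p = 0.0636 and 0.0762). Hspa1a made up 42.5% of the pair on average with vehicle at day 10, 39.1% with entinostat at day 10, 38.8% with vehicle at day 17 and 36.1% with entinostat at day 17. Part of the Hspa1a exons, 564 bases, lies opposite exons of Gm20481, and the library kit keeps no strand, so reads of the 2 genes cannot be told apart there.

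Hspa1l (chr17:34972703-34979228), an HSP70 gene best known from testis, is not a member but lies 546 bases from Hspa1a. It fell from 28.2 ± 4.83 CPM to 5.73 ± 3.73 CPM between days with vehicle (log2 -2.32 ± 0.46, adjusted p = 0.0100) and from 13.99 ± 7.06 to 2.75 ± 1.41 CPM with entinostat (-2.25 ± 0.50, adjusted p = 0.00555). Its counts at day 17 ran from 1 to 33 per library. Its coding sequence is 83.3% identical to that of Hspa1a, and it shares 1778 exon bases with the antisense gene Gm10501, so the share of these counts that is its own was not tested.

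Hspa8 (chr9:40801276-40805202) encodes HSC70, the HSP70 that cells make at all times. It had 434, 413, 423 and 384 CPM with vehicle and 441, 356, 364 and 323 CPM on entinostat at day 10. At day 17 it had 247, 292, 308 and 348 CPM with vehicle and 354, 316, 685 and 304 CPM with entinostat. The 685 CPM of entinostat day 17 replicate 3 stands far above the rest, and the other 3 libraries of its group overlapped those of vehicle at day 17 and of entinostat at day 10. No comparison of Hspa8 was called: with entinostat it was -0.16 ± 0.19 at day 10 (adjusted p = 0.573) and 0.44 ± 0.19 at day 17 (adjusted p = 0.123), and between days -0.47 ± 0.19 with vehicle (adjusted p = 0.135) and 0.12 ± 0.19 with entinostat (adjusted p = 0.744). Without that library, Hspa8 was called lower between days with vehicle (-0.48, adjusted p = 0.0171), and its entinostat values were 0.15 at day 17 (adjusted p = 0.446) and -0.20 between days (adjusted p = 0.342).

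**Figure D2:**
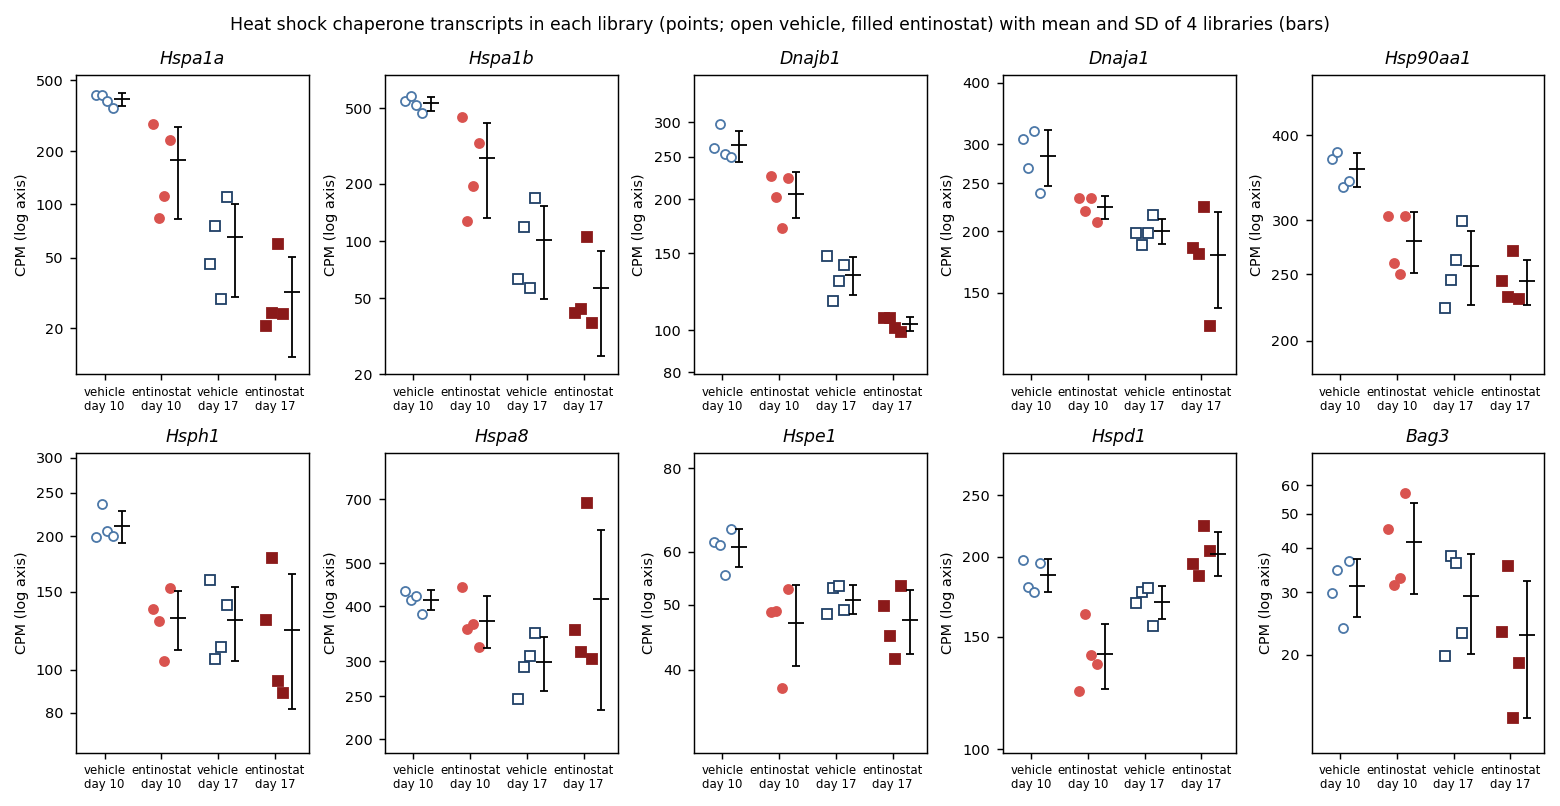
CPM on a log axis (y) in each library of the 4 groups (x) for each of the 10 members; bars give the mean and SD of 4 libraries. Hspa1a, Hspa1b and Dnajb1 step down from the vehicle libraries of day 10 to the libraries of day 17, and Hspd1 is lowest with entinostat at day 10.

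Dnajb1 (chr8:83608175-83612653) encodes HSP40, the stress-inducible J-domain partner of HSP70. It had 262, 297, 253 and 249 CPM with vehicle and 225, 203, 172 and 223 CPM on entinostat at day 10. The day 17 values were 148, 117, 130 and 141 CPM with vehicle and 107, 107, 101 and 99.1 CPM with entinostat. None of the 4 groups overlapped another, in the order vehicle day 10, entinostat day 10, vehicle day 17, entinostat day 17. Dnajb1 fell by 0.99 ± 0.10 on the log2 scale between days with vehicle (adjusted p = 0.000240) and by 0.99 ± 0.11 with entinostat (adjusted p = 1.55e-05), and was lower with entinostat by -0.37 ± 0.10 at day 10 (adjusted p = 0.0252) and -0.37 ± 0.11 at day 17 (adjusted p = 0.0218). The difference of the entinostat effect was 0.00, with a 95% interval from -0.32 to 0.31. The call at day 10 was lost in 13 of 28 alternatives and that at day 17 in 15 of 28, with values of -0.42 to -0.21 and -0.42 to -0.20.

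Dnaja1 (chr4:40722468-40734965), another cytosolic J-domain partner of HSP70, had 307, 268, 320 and 239.5 CPM with vehicle and 234, 219.8, 233 and 209 CPM on entinostat at day 10. At day 17 it had 199, 187, 198 and 216 CPM with vehicle and 185, 179.9, 224 and 128 CPM with entinostat. All vehicle libraries of day 10 lay above the other 3 groups, which overlapped. Dnaja1 was lower between days with vehicle (-0.50 ± 0.13, adjusted p = 0.0301), a call lost in 7 of 27 alternatives. The entinostat effects, -0.34 ± 0.13 at day 10 and -0.18 ± 0.13 at day 17, and the entinostat change between days, -0.35 ± 0.13, were not called (adjusted p = 0.0742, 0.340 and 0.0889). Dnaja1 exons overlap 608 bases of Smu1 on the opposite strand.

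Hsph1 (chr5:149616843-149636498) encodes HSP110, a nucleotide exchange factor of HSP70. It had 199, 237, 206 and 200.03 CPM with vehicle and 137, 129, 105 and 152 CPM on entinostat at day 10. The day 17 values were 159, 106, 112 and 139.6 CPM with vehicle and 129.6, 179, 94.6 and 88.5 CPM with entinostat. The vehicle libraries of day 10 again lay above all others, and the other 3 groups overlapped. Hsph1 was 1.61-fold lower with entinostat at day 10 (-0.68 ± 0.18, adjusted p = 0.0220) and 1.62-fold lower between days with vehicle (-0.70 ± 0.18, adjusted p = 0.0335). It was not called with entinostat at day 17 (-0.04 ± 0.19, adjusted p = 0.891) or between days with entinostat (-0.06 ± 0.19, adjusted p = 0.883), and the difference of the effects, 0.64 ± 0.26, was not called either (adjusted p = 0.302). The call at day 10 was lost in 8 of 28 alternatives and that between days with vehicle in 7 of 27.

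Bag3 (chr7:128523583-128546981), a co-chaperone that links HSP70 to autophagy and small heat shock proteins, was the lowest member. It had 29.9, 34.7, 23.7 and 36.9 CPM with vehicle and 45.4, 31.4, 33.0 and 57.0 CPM on entinostat at day 10. At day 17 it had 19.9, 37.9, 36.3 and 23.0 CPM with vehicle and 23.2, 35.5, 13.3 and 19.0 CPM with entinostat. All 4 groups overlapped each other, and no comparison was called. The change nearest to a call was the one between days with entinostat (-0.82 ± 0.30, adjusted p = 0.0785).

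Hsp90aa1 (chr12:110691036-110696395) encodes the inducible cytosolic HSP90, which receives client proteins from HSP70. It had 369, 378, 336 and 343 CPM with vehicle and 305, 260.3, 250.4 and 305 CPM on entinostat at day 10. The day 17 values were 223, 245, 262 and 299 CPM with vehicle and 245, 232, 270.4 and 230.3 CPM with entinostat. Only the vehicle libraries of day 10 stood apart, above the other 12. Hsp90aa1 was lower with entinostat at day 10 (-0.35 ± 0.10, adjusted p = 0.0309) and between days with vehicle (-0.47 ± 0.10, adjusted p = 0.0140), and was not called in the comparisons at day 17 (-0.08 ± 0.10, adjusted p = 0.604) or between days with entinostat (-0.21 ± 0.10, adjusted p = 0.207). The day 10 call was lost in 17 of 28 alternatives and that between days with vehicle in 3 of 27.

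Hspd1 (chr1:55077833-55088243) encodes HSP60, the chaperonin of the mitochondrial matrix. It had 198, 179.6, 176 and 196 CPM with vehicle and 123, 163, 141 and 136 CPM on entinostat at day 10. At day 17 it had 169, 176, 179 and 156 CPM with vehicle and 195, 187, 224 and 204 CPM with entinostat. The entinostat libraries were all below the vehicle libraries at day 10 and all above them at day 17. Hspd1 was lower with entinostat at day 10 (-0.41 ± 0.10, adjusted p = 0.0117), and 0.24 ± 0.10 at day 17 was not called (adjusted p = 0.0879). It rose between days with entinostat by 0.51 ± 0.10 (adjusted p = 0.00163), while -0.14 ± 0.09 with vehicle was not called (adjusted p = 0.353). The difference of the entinostat effect between days was 0.65 ± 0.14 (adjusted p = 0.0428). That call was lost without vehicle day 10 replicates 1 to 4, entinostat day 10 replicate 1, 3 or 4, entinostat day 17 replicate 1 or vehicle day 17 replicate 3 or 4, with values of 0.59 to 0.67 and adjusted p from 0.0506 to 0.0872. With a replicate block it was 0.66 (adjusted p = 0.0711). The day 10 call was kept whichever of the 16 libraries was left out, and was lost with library size alone (adjusted p = 0.0850) and at a minimum count of 50 (adjusted p = 0.0682). The day 17 value was called, as higher, in 7 of 28 alternatives.

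Hspe1 (chr1:55088148-55091317) encodes HSP10, the lid of the HSP60 chamber. It had 62.0, 61.4, 55.4 and 64.8 CPM with vehicle and 48.7, 48.9, 37.6 and 52.7 CPM on entinostat at day 10. The day 17 values were 48.4, 52.9, 53.3 and 49.0 CPM with vehicle and 49.8, 45.0, 41.5 and 53.3 CPM with entinostat. The vehicle libraries of day 10 were above all others. Hspe1 was not called in any comparison, with -0.37 ± 0.14 for entinostat at day 10 (adjusted p = 0.0732), -0.09 ± 0.14 at day 17 (adjusted p = 0.690), -0.26 ± 0.14 between days with vehicle (adjusted p = 0.239) and 0.02 ± 0.14 with entinostat (adjusted p = 0.942). Exons of Hspd1 and Hspe1 overlap over 112 bases on opposite strands.

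Levels per kilobase of exon set the members in order within a group. With vehicle at day 10 Hspa1b led with 189 CPM per kb, then Hspa8 with 173, Hspa1a with 132, Hsp90aa1 with 105, Dnajb1 with 82.9, Hspe1 with 78.7, Hspd1 with 77.4, Hsph1 with 49.8, Dnaja1 with 49.1 and Bag3 with 12.2 CPM per kb. With entinostat at day 17 Hspa8 led with 173 CPM per kb, followed by Hspd1 with 83.6, and Hspa1b and Hspa1a had 20.3 and 10.9 CPM per kb. That mean of Hspa8 was raised by replicate 3, at 685 CPM against 304 to 354 CPM in the others of its group. Hspa1a and Bag3 (8.88 CPM per kb) were then the lowest, and their order turned without entinostat day 17 replicate 3, at 7.77 for Hspa1a and 10.1 for Bag3, with Hspa1b at 14.6 CPM per kb. Neighbours such as Hspe1 and Hspd1, or Hsph1 and Dnaja1, with vehicle at day 10 lay within the spread of their libraries. Reads shared by Hspa1a and Hspa1b bear on their own order.

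Over the 16 libraries the log2 CPM of Hsp90aa1 had a Pearson correlation of 0.95 with the mean of the other members, Hspa1a and Hspa1b 0.90 each, Dnajb1 0.86, Dnaja1 0.80 and Hsph1 0.71. Hspe1 had 0.56, Hspa8 0.31, Bag3 0.22 and Hspd1 -0.20. The libraries fall into treatment and day groups and share their depth, so these values describe the groups as well as the genes. The 8 genes of at least 16 CPM most like the members' mean, of 9762 ranked, were Esyt2 (0.91), Abi1 (0.91), Sec11a (0.90), Lime1 (0.90), Kansl1 (0.90), Septin1 (0.90), Lbr (0.89) and Elovl5 (0.89).

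Hsf1, the main transcription factor of the heat shock response, was lower with entinostat at day 17. It had 122 ± 7.30 CPM with vehicle and 94.96 ± 15.5 CPM on entinostat at day 10, and 115 ± 9.67 CPM with vehicle and 58.7 ± 4.85 CPM on entinostat at day 17. The entinostat effect was called at day 17 (-0.98 ± 0.12, adjusted p = 3.13e-05) and so was the fall between days with entinostat (-0.70 ± 0.12, adjusted p = 0.000894), both under every alternative run, 28 and 27. With vehicle Hsf1 was -0.08 ± 0.12 between days (adjusted p = 0.694). These are mRNA levels, activity of the HSF1 protein was not measured, and its part in the members' levels was not tested. The entinostat effect on Hsf1 at day 10, -0.35 ± 0.12 (adjusted p = 0.0495), was lost in 24 of 28 alternatives, the replicate block within each day among them (adjusted p = 0.0899). The difference of the effects, -0.62 ± 0.17, was not called (adjusted p = 0.113). Hsf2, a related factor, was at 10.5 to 23.2 CPM in the group means and was called in no comparison. Of 9 genes in the list of heat shock factors and regulators, 2 were lower with entinostat at day 10 (Hsf1 and Vcp, -0.40 ± 0.12) and 1 at day 17, with list medians of -0.28 and 0.03. With RLE scaling or library size alone, Hsf1 was not called at day 10 and stayed called at day 17.

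Among other cytosolic chaperones, most did not pass the test in any comparison. Of genes of at least 16 CPM, 11.9% were called lower with entinostat at day 10 and 21.9% at day 17. Between days 6.40% were called lower with vehicle, and 18.2% lower and 3.39% higher with entinostat. Whether the counts of any related list differed from these shares was not tested. Of 6 tested genes of the other HSP70 and HSP110 list, 1 was lower with entinostat at day 10 (Hspa4, -0.29 ± 0.08), 1 between days with vehicle (Hspa1l) and 2 with entinostat (Hspa1l and Hspa2, -0.99 ± 0.29). Of 15 other J-domain proteins, 1 was lower with entinostat at day 10 (Dnajc7, -0.39 ± 0.08) and 5 at day 17, Dnajc7 (-0.54 ± 0.08), Dnajc5 (-0.54 ± 0.09) and Dnajc13 (-0.41 ± 0.12) among them. Between days 2 were lower with vehicle (Dnajb6, -0.50 ± 0.11, and Dnaja4, -0.71 ± 0.18) and 4 with entinostat, and the list medians were -0.22, -0.32, -0.16 and -0.26 in these 4 comparisons. At day 17 the count was 3 under RLE scaling and 2 under library size alone, and between days with vehicle it was 3 and 1. Of 16 HSP90 genes and co-chaperones, 3 were lower with entinostat at day 10: Cacybp (-0.57 ± 0.10), Ahsa1, the activator of the HSP90 ATPase (-0.35 ± 0.11), and Stip1, the adaptor between HSP70 and HSP90 (-0.32 ± 0.10). That count was 2 under RLE scaling and 1 under library size alone, and the Hspa4 call at day 10 was lost under both. Between days with entinostat Stip1 rose (0.40 ± 0.10) and Unc45a fell, from 232 to 152 CPM in the group means. Unc45a was also the 1 lower with entinostat at day 17, and Cacybp the 1 lower between days with vehicle. The Unc45a call at day 17 was lost under RLE scaling and library size alone, and the Cacybp call between days under library size alone. Hsp90ab1, the constitutive HSP90, was called in no comparison. Of 8 further nucleotide exchange and co-chaperone genes, 1 was lower with entinostat at day 17 and 2 between days with entinostat (Bag5, -0.69 ± 0.21, and Bag4, -0.53 ± 0.17). Under RLE scaling or library size alone edgeR called 0 of these 8 in both comparisons. Of 11 small heat shock proteins 5 were tested, and edgeR called 0 in any comparison. At an unadjusted p under 0.05 the count was 1, higher between days with vehicle, where limma-voom called 1 and DESeq2 0.

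In the chaperonin and endoplasmic reticulum lists, genes lower with entinostat at day 10 and genes that rose between days with entinostat both occurred. Of 14 subunits of TRiC, the cytosolic chaperonin, and of prefoldin, 5 were lower with entinostat at day 10, Tcp1 (-0.51 ± 0.09), Cct5 (-0.30 ± 0.09) and Cct2 (-0.27 ± 0.08) among them. Between days with entinostat 3 rose: Tcp1 (0.47 ± 0.10), Cct7 (0.36 ± 0.09) and Cct6a (0.34 ± 0.09). The list medians were -0.23 and 0.18. With library size alone 1 of the 14 was lower at day 10 (median -0.07) and 6 rose between days with entinostat (median 0.30). Of 21 endoplasmic reticulum chaperones and regulators, 10 were lower with entinostat at day 10 and 6 at day 17, led by Xbp1 (-0.72 ± 0.11 and -0.76 ± 0.11) and Herpud1 (-0.87 ± 0.14 and -0.81 ± 0.14), a transcription factor and a target gene of the unfolded protein response. Between days with entinostat 8 of these 21 rose, Pdia6 (0.60 ± 0.10) the one of smallest p, and 3 fell, Dnajb9 (-1.12 ± 0.17) and Atf4 (-0.55 ± 0.08) among them. With vehicle 1 fell, Dnajb9 (-0.57 ± 0.16). The medians of this list were -0.33 for entinostat at day 10, -0.17 at day 17, -0.08 between days with vehicle and 0.20 with entinostat. With library size alone 2 of the 21 were lower with entinostat at day 10, 4 were lower and 5 higher at day 17, and 11 rose between days with entinostat. Xbp1 and Herpud1 stayed lower at both days under each scaling. Of 13 mitochondrial chaperones and proteases other than the members, 2 were lower with entinostat at day 10 (Trap1, -0.46 ± 0.10, and Dnaja3, -0.50 ± 0.13) and 1 at day 17, Dnaja3 (-0.40 ± 0.13). Under library size alone the count was 1 at day 10, and under it or RLE scaling the Dnaja3 call at day 17 was lost. Hspa5 and Hspa9, the HSP70 proteins of these 2 compartments, were called in no comparison. Of the 107 tested genes of these chaperone lists together, edgeR called 0 for the difference of the entinostat effect between days, against 35 at an unadjusted p under 0.05, 17 with DESeq2 and 5 with limma-voom. Of all genes DESeq2 called 1.34% lower and 1.89% higher for this difference, and limma-voom 0.718% lower and 0.683% higher.

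**Figure D3:**
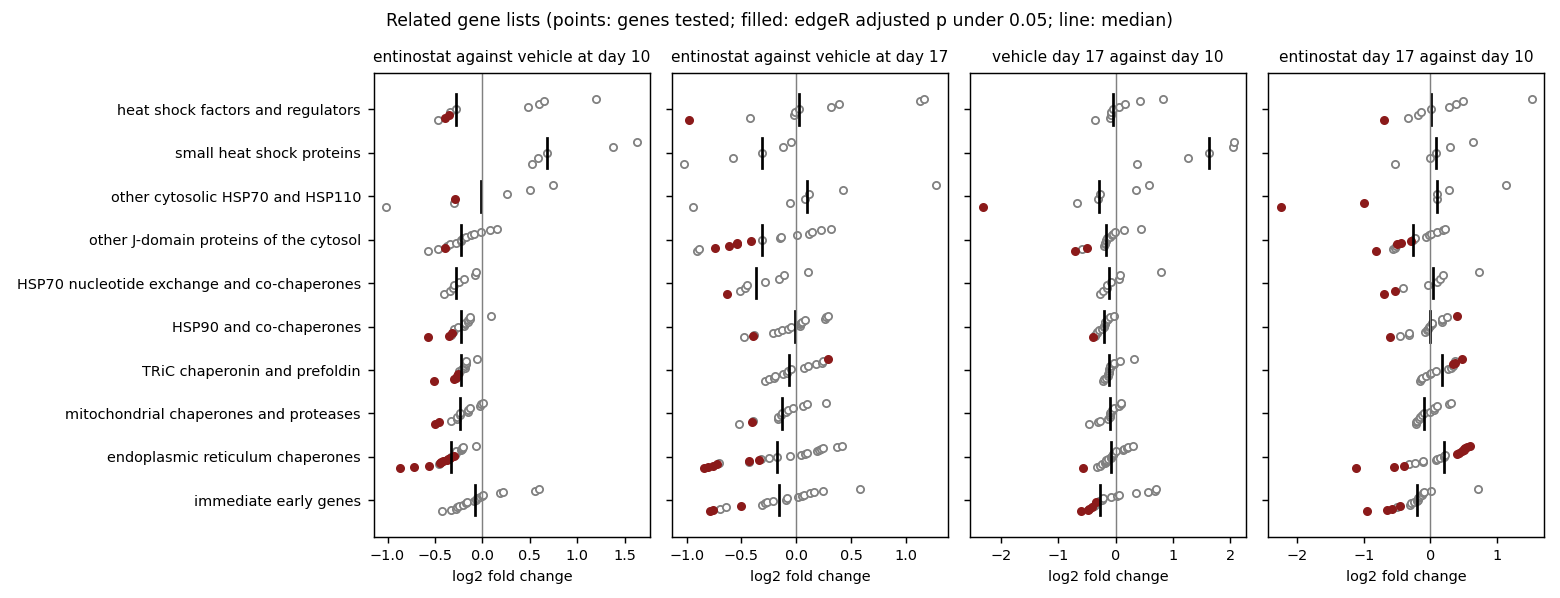
Log2 fold change (x axis, scaled separately in each panel) of every tested gene of 10 related lists (y axis) in 4 comparisons; filled points have an edgeR adjusted p under 0.05 and the line marks the median. Filled points of the endoplasmic reticulum and TRiC lists lie below 0 for entinostat at day 10, and most lie above 0 between days with entinostat.

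Immediate early genes, which like heat shock genes can be induced while tissue is dissociated, were followed beside the members. Of 18, 5 were lower at day 17 than at day 10 with vehicle, Ier5 (-0.47 ± 0.11), Nfkbia (-0.48 ± 0.12) and Jund (-0.33 ± 0.09) among them. With entinostat 4 were lower between days, led by Ier5 (-0.95 ± 0.11), and at day 17 Ier5, Jun and Zfp36 were lower with entinostat. The 5 calls between days with vehicle depended on the scaling, with 2 lower under RLE scaling and 0 under library size alone, where Ier5 was -0.33 (adjusted p = 0.0509). At day 10 edgeR called 0 of 18 for entinostat, against 4 lower at an unadjusted p under 0.05, 0 with DESeq2 and 3 lower with limma-voom. The summed level of the list was 5660 to 6433 CPM in vehicle and 5193 to 6042 CPM in entinostat libraries of day 10, and 4470 to 5898 and 3916 to 5459 CPM at day 17. Whether handling of the tissue had a part in the members' levels was not tested.

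Marker genes of other cells moved with the groups. Cd8a, the gated co-receptor, had 419 ± 14.6 CPM with vehicle and 331 ± 22.3 with entinostat at day 10, and 369.6 ± 30.8 and 442 ± 109.8 CPM at day 17. None of the 8 CD8 T cell markers was at 0 throughout a group, and their summed level was 2546 to 2893 CPM with vehicle at day 10, 2225 to 2734 with entinostat at day 10, 2075 to 2457 with vehicle at day 17 and 2269 to 3767 with entinostat at day 17. Between days edgeR called Cd8a higher with entinostat and Cd247 lower with vehicle. It called 0 of the 8 for entinostat at either day. At day 17 the count higher with entinostat was 7 with DESeq2, 5 under RLE scaling, 7 under library size alone and 0 with limma-voom. Of 14 plasmacytoid and myeloid markers, 10 were lower and 1 higher (Adgre1) with entinostat at day 10 and 10 were lower at day 17, and none was at 0 in a whole group. Their summed level was 1359 to 2773 CPM in vehicle and 582 to 863 CPM in entinostat libraries of day 10, and 2371 to 3169 and 501 to 630 CPM at day 17. Between days with vehicle, where the inducible pair fell, edgeR called 0 of the 14, against 2 higher at an unadjusted p under 0.05 and 1 higher with DESeq2 or limma-voom. Tumour and stromal markers summed to 301 to 666, 228 to 627, 539.9 to 1600.1 and 253 to 604 CPM in the same order of groups. Of 9 tested, 2 were higher at day 17 than at day 10 with vehicle (Col3a1 and Col1a2). In the vehicle libraries of day 17 these ran from 7.22 to 720 CPM and from 2.56 to 278 CPM, with an SD above the mean. With entinostat 2 were lower at day 10 (Cdh5 and Cdh1), where the list median was 0.52, and 4 at day 17, where it was -1.09. B and NK cell markers summed to at most 60.7 CPM. At day 10 Ms4a1 was called higher with entinostat, at 2.86 to 45.7 CPM against 1.81 to 3.67 CPM. Cd79b was called lower with entinostat at both days, and at day 10 that call was lost under library size alone. The part of these cells in the members' values was not tested, and in bulk RNA fewer cells of a type and less RNA per cell cannot be told apart.

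Total counts ran from 554593 in entinostat day 17 replicate 3 to 6975904 in vehicle day 17 replicate 1. Counts of some abundant genes did not grow in proportion: Actb, a cytoskeletal gene, had 1618 counts in the smallest library and 2415 to 3265 in the others, so its CPM in the smallest library was 2684 against at most 898 elsewhere. Hspa8 had 413 counts in the smallest library and 896 to 1809 in the others. Hspa1a had 1311 to 1603 counts per vehicle library of day 10 and 36 to 91 per entinostat library of day 17, so its precision was lowest there. The summed level of 1432 olfactory and vomeronasal receptor genes, known from sensory neurons, averaged 1437 CPM in vehicle and 3712 CPM in entinostat libraries of day 10, and 3292 and 5240 CPM at day 17. With the receptor level as a covariate 2 members were called for entinostat at day 10, Hsp90aa1 and Hspd1.

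**Figure D4:**
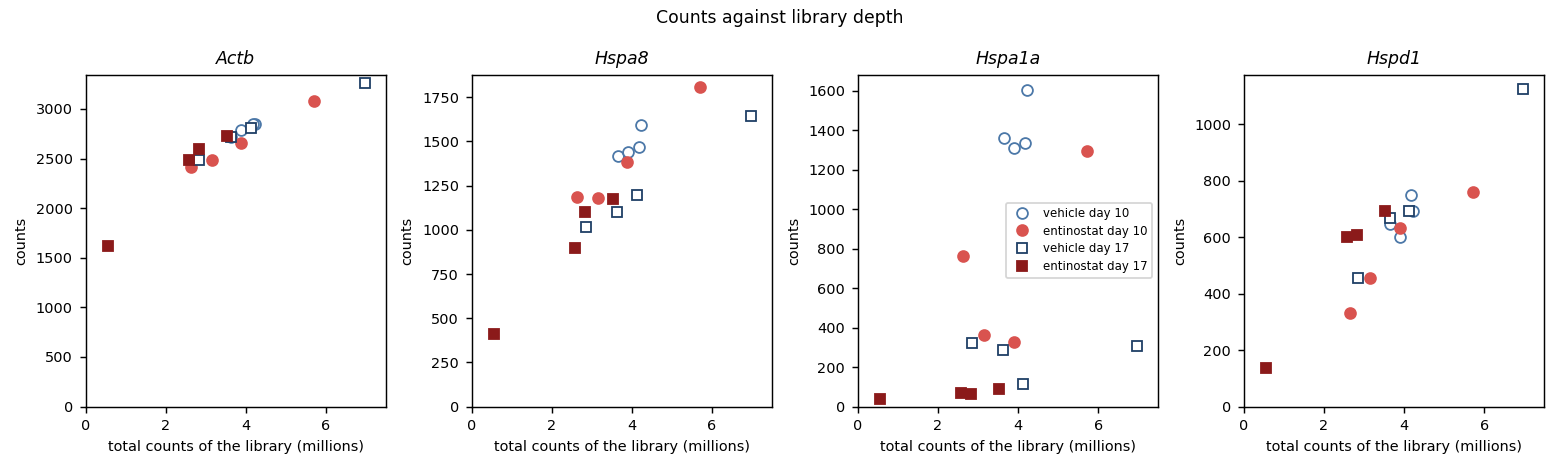
Counts (y axis) of Actb, Hspa8, Hspa1a and Hspd1 against the total counts of each of the 16 libraries (x axis), marked by group. Actb stays between 1618 and 3265 over the whole range of depth, and Hspa1a has 1311 to 1603 counts in the vehicle libraries of day 10 and 36 to 91 in the entinostat libraries of day 17.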

How the data were processed

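Raw counts per gene, deposited by the authors as whole numbers for 16 libraries, were used unscaled. Per the labels, SMART-seq v4 made cDNA and Nextera XT the libraries, marking neither strand nor single molecules. The submitters' processing notes name STAR and mm10; the counting program and duplicate removal are not stated in what was used here. Genes were kept by filterByExpr at a minimum count of 10 (17414 of 24028). Tests ran in edgeR 4.0.16 under R 4.3.3 (quasi-likelihood, TMM, 1 mean per group over all 16 libraries, 12 residual degrees of freedom, common coefficient of variation 0.38), with p adjusted over all tested genes per comparison. Log2 CPM used a prior count of 2. The steps were tested on simulated data. The chi-square per degree of freedom between libraries of a group was at least 2.96, so each was counted once.

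The labels repeat replicate numbers across groups. Deviations of vehicle and entinostat libraries of equal number at day 10 correlated at 0.259, 0.260, 0.240 and 0.270 over the 9772 genes of at least 16 CPM, each highest with its own number, and the numbers were taken as pairs there, from the data alone. Over all 17414 genes these were 0.180, 0.033, 0.114 and 0.057. The reported tests leave the pairs out. With a replicate block within each day, 2 members were called for entinostat at day 10 in place of 5. That block also pairs the day 17 libraries, whose numbers were not taken as pairs.

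Members and gene lists were chosen with earlier results of these data known. Named genes are all members, up to 3 called genes of smallest p per list and comparison, Hsf1, Hsf2, Hsp90ab1, Hspa5, Hspa9, Cd8a and the 8 genes most like the members; Adgre1 and Actb were named after their values were seen. Positions and promoters come from RefSeq GRCm38.p6, exon lengths and overlaps from GENCODE M21 (GRCm38). Alternatives were DESeq2 1.42.0, limma-voom 3.58.1, other scaling (RLE, library size), other filters (none, minimum 50), fits of the compared groups, replicate blocks, a receptor covariate, the summed pair and omission of each library. A total count covariate was added after seeing the data.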

Additional observations from a re-analysis of the deposited data

Results flagged for a closer look

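Entinostat day 17 replicate 3, the library of 554593 counts, stood apart from the other 3 of its group for 3 members. Hspa1a had 59.7 CPM there against 20.6 to 24.5 CPM, Hspa1b 105 CPM against 37.0 to 44.2 CPM and Hspa8 685 CPM against 304 to 354 CPM. Of 40 groups checked, 10 members in 4 groups, 3 were singled out by Dixon's ratio, and chance alone singles out about 1 in 20. All 3 lie in 1 library, whose Actb was also highest.

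The entinostat effect differed between days for Hspd1, by 0.65 on the log2 scale (day 17 minus day 10, edgeR adjusted p = 0.0428). Among the other named genes it also differed for Tyrobp, a signalling adaptor of myeloid and NK cells in the plasmacytoid and myeloid list, by -1.27 (adjusted p = 0.0455).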

How the results depend on the processing

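Counts of members called, against 5 for entinostat at day 10, were 8 with limma-voom, 3 with RLE scaling, 0 with library size alone, 1 at a minimum count of 50, 2 with the compared groups alone, 2 with a replicate block within each day, 2 with the receptor covariate and 1 to 5 leaving out each library. Against 1 at day 17 they were 2 with DESeq2 (Hspa8 and Hspd1, higher), 0 with limma-voom, 2 without a filter, 0 with the compared groups alone, 2 with total count as covariate and 0 to 3 leaving out each library. Against 6 between days with vehicle the count was 3 with library size alone, and against 4 with entinostat it stayed within 1.5 times under every alternative run. Against 1 for the difference it was 0 without a filter, 0 with a replicate block, 0 with a block within each day, 0 with total count as covariate and 0 to 1 leaving out each library. Causes were not tested, except that fewer libraries or genes enter some fits. Calls over all genes moved as well: for entinostat at day 10 limma-voom called 18.2% lower, against 6.93% in the reported fit. That share was 2.89% with library size alone and 2.96% to 8.39% leaving out each library. With total count as covariate, Hspa8 between days with entinostat was -0.30 (adjusted p = 0.0342) and Hsp90ab1 -0.091, both above 0 otherwise in the reported fit. The block within each day gives no value between days. The other replicate numbers had correlations that were not all over 0.1, so they were not taken as pairs. Over all members, comparisons and alternatives, 1227 values kept their side of the threshold, 103 lost and 29 gained a call and 1 reversed. Low counts limit Bag3 and, at day 17, Hspa1a.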
